A study of Mus musculus with 6 samples.

Results

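The 10 genes described here encode RNA-binding proteins that steer alternative splicing in neurons: Ptbp1 and Ptbp2, Nova1 and Nova2, Elavl2, Elavl3 and Elavl4, Mbnl1 and Mbnl2, and Rbfox2. They were picked by gene symbol, all 10 had a row, and they stand among 15705 genes of the deposited table. RNA sequencing of cultured mouse cortical neurons was used to set neurons given N40K, an N-terminal fragment of the U1 snRNP protein encoded by Snrnp70, against neurons given a control vector. The N40K group (3 libraries) received lentiviral particles of FCK1.3GW-N40K and the Control group (3 libraries) received the vector FCK1.3GW with EGFP, in both cases under a short CaMKII promoter, which is most active in excitatory neurons. All cultures came from C57BL/6 embryos at embryonic day 18 and were infected on day 7 in culture for 3 days. Whether the replicates were separate cultures is not stated; the p-values therefore reflect the spread between these libraries, which may be technical.

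What was deposited is a score called Sd for each gene in each library, read here as splicing deficiency. Scores of this type usually divide a gene's unspliced reads by its spliced reads, so that a higher value stands for less complete splicing; the formula itself is not given in the sources used here. It is not an RNA level, and it does not resolve single introns or exons. A gain of unspliced RNA and a loss of spliced RNA would raise it alike. Scores were not compared between genes as levels, since how gene length enters them is not known. The median score over all genes was 0.0146 to 0.0163 in the N40K libraries and 0.0127 to 0.0136 in the Control libraries, and the depth behind the scores is unknown.

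As background, these proteins bind short motifs in precursor RNA and decide which exons and introns are kept. PTBP1 is a repressor that predominates in non-neuronal cells and progenitors, and its neuronal paralog PTBP2 takes over as neurons are born. NOVA proteins bind YCAY motifs in RNAs of synaptic proteins, the neuronal ELAVL (Hu) proteins bind U-rich and AU-rich stretches and also stabilise messages, MBNL proteins promote adult splicing patterns, and RBFOX proteins bind UGCAUG. Many of these regulators also control the splicing of their own and of each other's transcripts.

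The best known of these links is an exon of Ptbp2. PTBP1 causes skipping of this exon, and the skipped form has a shifted reading frame and is degraded by nonsense-mediated decay. It is shown because Ptbp2 had the largest change of score among the 10 genes, and because it is the part of Ptbp2 on which its paralog is known to act. In GENCODE release M21 it is exon 10 of the full-length coding transcripts, 34 bases at chr3:119724612-119724645 on the minus strand of GRCm38. It is included in 3 annotated Ptbp2 transcripts, all protein coding, and 2 annotated transcripts join its neighbours directly, both classed as nonsense-mediated decay. Capitals mark the exon and lower case the 20 bases of transcript on each side.
Ptbp2, exon included: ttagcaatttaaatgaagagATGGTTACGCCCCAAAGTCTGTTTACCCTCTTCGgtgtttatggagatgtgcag
Ptbp2, exon skipped: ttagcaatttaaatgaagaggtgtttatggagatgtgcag

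The muscleblind genes share an alternative exon of 54 bases that takes part in the nuclear localisation of the proteins and that MBNL proteins regulate themselves. It is shown because both paralogs rose in these data. In GRCm38 it lies at chr3:60614683-60614736 (Mbnl1) and chr14:120395712-120395765 (Mbnl2), both on the plus strand, and 46 of its 54 bases (85.2%) are identical between the paralogs. Capitals again mark the exon.
Mbnl1: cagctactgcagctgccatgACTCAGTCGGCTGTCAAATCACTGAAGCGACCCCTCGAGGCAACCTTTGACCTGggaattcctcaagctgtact
Mbnl2: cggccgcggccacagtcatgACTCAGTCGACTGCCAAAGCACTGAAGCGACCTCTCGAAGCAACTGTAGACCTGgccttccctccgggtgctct

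With N40K, 4 of the 10 regulators rose in score and 0 fell (limma on log2(score + 0.01), Benjamini-Hochberg adjusted p under 0.05 over all genes). Among all genes 21.5% rose and 4.11% fell. The rises were in Ptbp2, Elavl4, Mbnl1 and Mbnl2. In these 4 genes and in Nova1 the lowest N40K score exceeded the highest Control score, as it did in 33.6% of all genes. In 0 of the 10 regulators were the N40K scores all below the Control scores, which was so in 8.67% of all genes. The ratio of the mean scores, N40K over Control, had a median of 1.24 over the 10 regulators and of 1.11 over all genes. The number of rises was 1 when the libraries were scaled to each other in any of the ways tried and when N40K replicate 2, N40K replicate 3 or Control replicate 2 was left out, and 2 without Control replicate 1 or Control replicate 3. Ptbp2 was the call that held in all of these. No shares over all genes are given for the fits with a library left out. Those counts therefore do not show whether the regulators lost more calls than other genes.

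**Figure D1:**
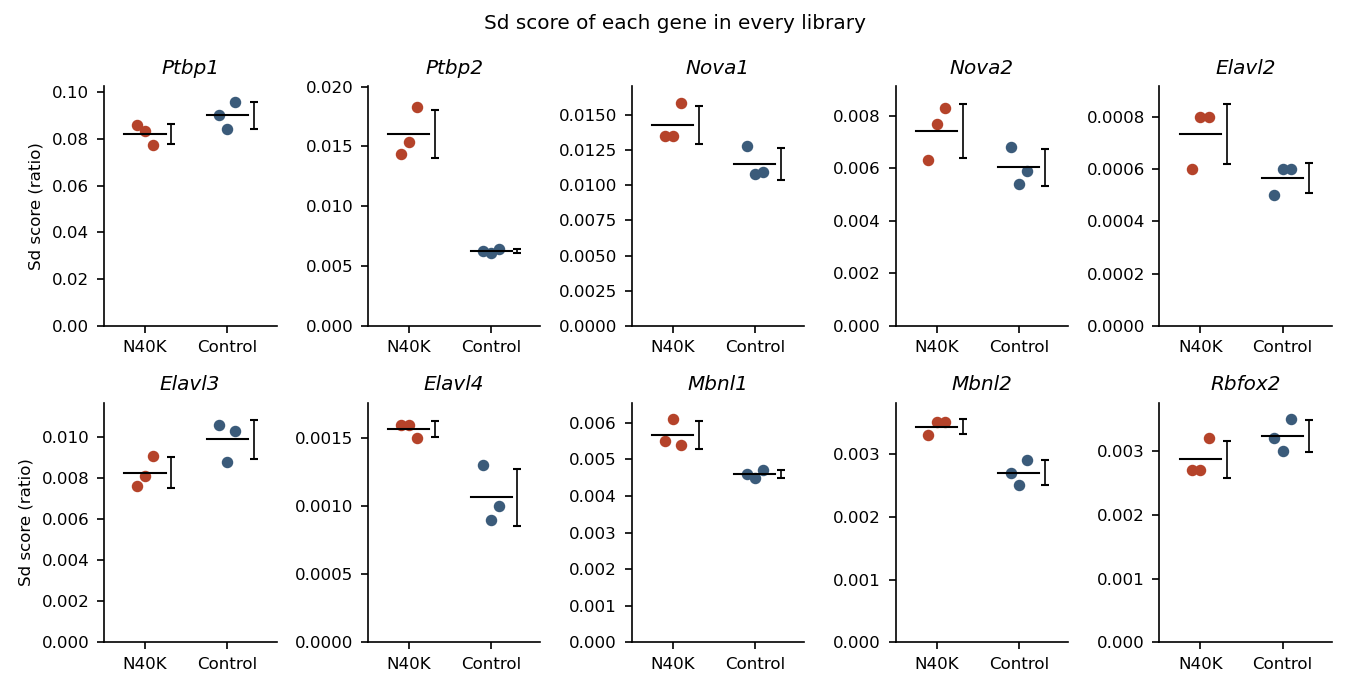
Sd score (a ratio without unit, axis from 0) of each of the 10 genes in the 3 N40K and the 3 Control libraries; points are libraries, horizontal lines are means and the bars beside them are ± 1 SD. The Ptbp2 scores of N40K libraries, 0.0144 to 0.0183, stand clear of the Control scores, 0.0061 to 0.0064, while the groups overlap in Ptbp1.

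Ptbp2, the neuronal PTB repressor, had scores of 0.0144, 0.0154 and 0.0183 in the N40K libraries, against 0.0063, 0.0061 and 0.0064 in the Control libraries. The Control libraries lay within 0.0003 of each other, and every N40K score was more than double the highest of them. The mean was 0.016 ± 0.00203 in N40K neurons and 0.00627 ± 0.000153 in Control neurons (SD, n = 3 each), a ratio of 2.56. Of all 15705 genes, 498 had a larger ratio. The change was 0.68 ± 0.06 (SE) on the log2(score + 0.01) scale (limma adjusted p = 0.00302). That scale compresses low scores, and with no pseudocount the log2 change was 1.35 ± 0.11 (limma adjusted p = 0.00212). Leaving out each library in turn gave adjusted p-values of 0.00403 to 0.02.

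Ptbp1, the paralog that represses Ptbp2 exon 10, did not pass the test. It had scores of 0.0858, 0.0833 and 0.0775 in the N40K libraries, against 0.0904, 0.0841 and 0.0957 in the Control libraries. The groups overlapped, since the highest N40K score exceeded the lowest Control score. The ratio of means was 0.913, and the 95% interval of the log2 change ran from -0.32 to 0.08 (limma adjusted p = 0.346). Ptbp3, the third family member, listed in the table under its older symbol Rod1, had 0.0058, 0.0077 and 0.0071 in N40K libraries, against 0.0041, 0.0044 and 0.0036 in Control libraries. It rose 1.7-fold (limma adjusted p = 0.0153), but was no longer called without Control replicate 1 or Control replicate 3 (highest adjusted p = 0.0594) or after centring on library medians (0.0883).

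The paralogs Ptbp2 and Ptbp1 can be compared within a library, where multiplying all scores of a library by 1 factor has no effect on the ratio. The Ptbp2 score over the Ptbp1 score was 0.168, 0.185 and 0.236 in the N40K libraries, against 0.0697, 0.0725 and 0.0669 in the Control libraries. All 3 N40K ratios lay above all 3 Control ratios. The difference was 1.48 (log2) without the pseudocount. It was 0.79 on the log2(score + 0.01) scale, where such a factor does have an effect. The exact 2-sided permutation p was 0.1 in both cases, the smallest this design can give. With the pseudocount it was 0.2 after Benjamini-Hochberg adjustment over the 6 paralog pairs compared.

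Nova1 and Nova2, the regulators of synaptic transcripts, both had higher mean scores with N40K, and neither passed the test. Nova1 had 0.0135, 0.0135 and 0.0158 in N40K libraries, against 0.0128, 0.0108 and 0.0109 in Control libraries, so its groups did not overlap. Its ratio of means was 1.24 (limma adjusted p = 0.107). Nova2 had 0.0063, 0.0077 and 0.0083 in N40K libraries, against 0.0068, 0.0054 and 0.0059 in Control libraries, and its groups overlapped. Its ratio of means was 1.23 (limma adjusted p = 0.182). The change of Nova1 relative to Nova2 was 0.05 (log2, exact permutation p = 0.3), and the groups overlapped.

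The neuronal ELAVL genes had score ratios on both sides of 1. Elavl4 (HuD), which stabilises messages of growing neurites, had 0.0016, 0.0016 and 0.0015 in N40K libraries, against 0.0013, 0.0009 and 0.001 in Control libraries. Its mean score rose 1.47-fold, and its change on the log2(score + 0.01) scale was 0.06 ± 0.02 (SE, limma adjusted p = 0.0342). The call ended without any library other than Control replicate 1 (highest adjusted p = 0.112). Elavl3 (HuC) had 0.0076, 0.0081 and 0.0091 in N40K libraries, against 0.0106, 0.0088 and 0.0103 in Control libraries, a ratio of 0.835 that did not pass (limma adjusted p = 0.159). N40K replicate 3 lay above Control replicate 2, so the groups overlapped. After each of the 3 scalings of the libraries Elavl3 passed as a fall, with adjusted p-values of 0.0279 (median deviation), 0.01 (quantile) and 0.00924 (library median).

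Elavl2 (HuB) had 0.0006, 0.0008 and 0.0008 in N40K libraries, against 0.0005, 0.0006 and 0.0006 in Control libraries. Scores are deposited in steps of 0.0001, and rounding alone lets its ratio of 1.29 lie anywhere between 1.11 and 1.52. It did not pass (limma adjusted p = 0.193). It passed as a rise without N40K replicate 1 (0.0441) and as a fall after centring on library medians (0.03). No N40K score of Elavl2 lay below a Control score. That fall comes from subtracting a shift of 0.13 (log2) from a change of 0.02. Elavl1 (HuR), the widely expressed member of the family, had 0.0123, 0.0156 and 0.0165 in N40K libraries, against 0.0129, 0.0125 and 0.0129 in Control libraries, and did not pass (0.311).

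Within libraries, the Elavl4 score over the Elavl3 score was 0.211, 0.198 and 0.165 in N40K libraries, against 0.123, 0.102 and 0.0971 in Control libraries. The Elavl2 score over the Elavl3 score was 0.0789, 0.0988 and 0.0879 in N40K libraries, against 0.0472, 0.0682 and 0.0583 in Control libraries. The groups were apart in both ratios, with differences of 0.19 for Elavl4 and 0.15 for Elavl2 on the log2(score + 0.01) scale, or 0.83 and 0.62 without the pseudocount, and an exact permutation p of 0.1 each, 0.2 adjusted over the 6 pairs. Rounding of the deposited scores alone lets the groups of Elavl2 over Elavl3 meet, since the lowest N40K ratio could be 0.0719 and the highest Control ratio 0.0743. Elavl2 over Elavl4 gave overlapping groups (exact permutation p = 0.3).

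Mbnl1 and Mbnl2, the muscleblind genes, both rose. Mbnl1 had 0.0055, 0.0061 and 0.0054 in N40K libraries, against 0.0046, 0.0045 and 0.0047 in Control libraries, a ratio of 1.23 (limma adjusted p = 0.0383). Mbnl2 had 0.0033, 0.0035 and 0.0035 in N40K libraries, against 0.0027, 0.0025 and 0.0029 in Control libraries, a ratio of 1.27 (limma adjusted p = 0.0251). In both genes the groups did not overlap. The Mbnl2 score over the Mbnl1 score was 0.6, 0.574 and 0.648 in N40K libraries, against 0.587, 0.556 and 0.617 in Control libraries, and its groups overlapped (log2 difference -0.02, or 0.05 without the pseudocount, exact permutation p = 0.4 and 0.5). The call of Mbnl1 ended without any library other than N40K replicate 1 (highest adjusted p = 0.115), and that of Mbnl2 without N40K replicate 2, N40K replicate 3, Control replicate 1 or Control replicate 2 (0.0807). Both ended under all 3 scalings (lowest adjusted p = 0.441 for Mbnl1 and 0.225 for Mbnl2).

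Rbfox2 had 0.0027, 0.0027 and 0.0032 in N40K libraries, against 0.0032, 0.003 and 0.0035 in Control libraries. The groups overlapped, and the ratio of 0.887 did not pass (limma adjusted p = 0.279), but it passed as a fall after each of the 3 scalings (0.0137, 0.0132 and 0.0078). Its paralogs Rbfox1 and Rbfox3 (Rbfox3 encodes the neuronal antigen NeuN) lay a few rounding steps above 0. Rbfox1 had 0.0006 in every N40K library and 0.0005 in every Control library, and Rbfox3 had 0.0004, 0.0006 and 0.0005 in N40K libraries and 0.0004 in every Control library. Neither passed (0.208 and 0.344). After centring on library medians both passed as falls (0.03 and 0.026), although no N40K score lay below a Control score of the same gene. At such low scores the pseudocount leaves little room for change, so the subtracted shift of 0.13 (log2) sets that direction. Without a pseudocount Rbfox1 passed as a rise instead (log2 change 0.26, adjusted p = 0.0257).

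**Figure D2:**
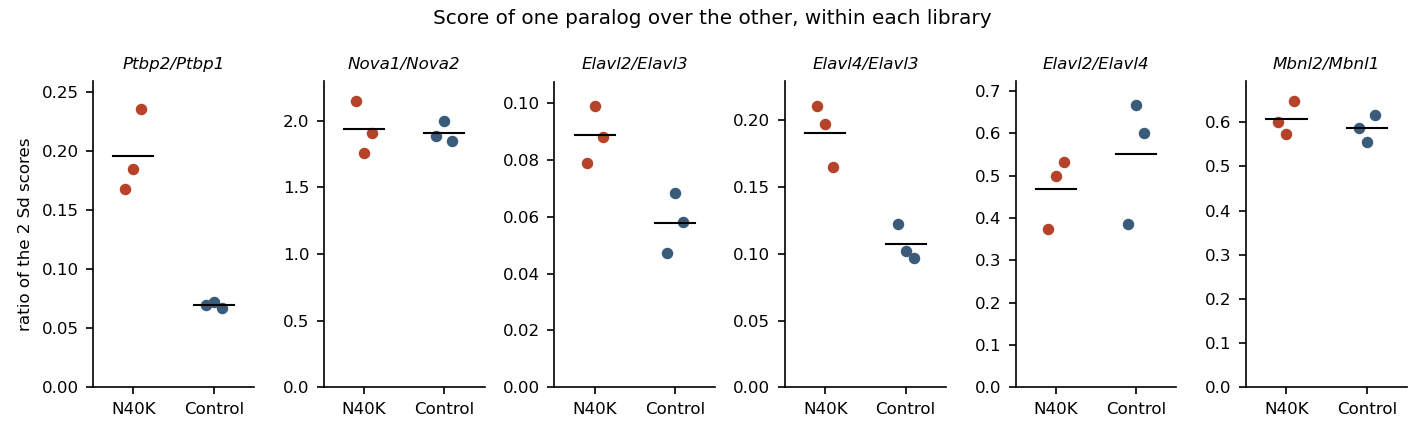
Ratio of the Sd scores of 2 paralogs within each library (axis from 0), in the 3 N40K and the 3 Control libraries, with the mean as a line. The groups are apart for Ptbp2/Ptbp1, Elavl2/Elavl3 and Elavl4/Elavl3 and overlap for the other 3 pairs.

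The direction of the small changes rested on the scaling between libraries. Subtracting the median of each library took out a shift of 0.13 (log2) between the groups, and subtracting the median deviation of its genes from their mean over libraries took out 0.07. Among the 10 regulators, 1 rose and 2 fell after centring on the median deviation (14.2% and 9.67% of all genes) and after quantile normalization (12.9% and 12.0%). After centring on the library median 1 rose and 3 fell (9.75% and 18.4%). Ptbp2 was the rise in each case, at a log2 change of 0.55 to 0.61, and Elavl3 and Rbfox2 were among the falls, joined by Elavl2 under the last scaling. A fit without a pseudocount, chosen after seeing the data, was also centred on the median deviation. It kept the changes of Nova2 (0.13), Elavl2 (0.20), Elavl4 (0.40), Mbnl1 (0.13) and Mbnl2 (0.18) positive. None of these passed, while Elavl3 (-0.43) and Rbfox2 (-0.34) passed as falls.

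**Figure D3:**
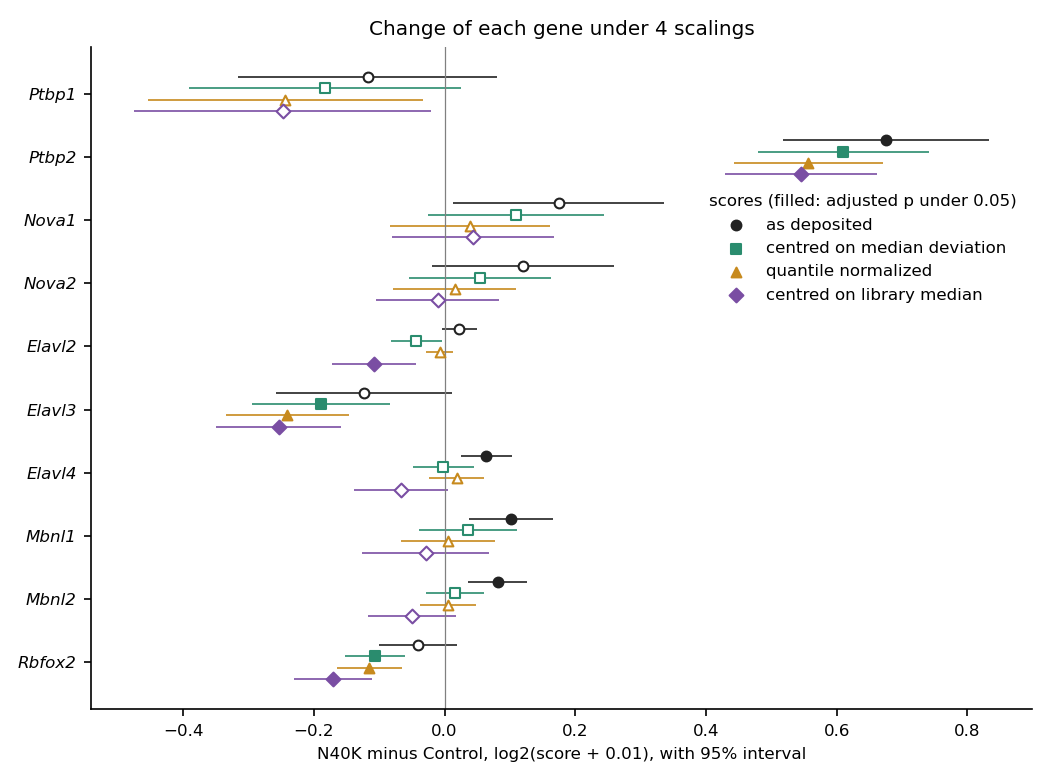
Change of each gene, N40K minus Control, in log2(score + 0.01) with its 95% interval from limma, for the scores as deposited and under 3 scalings between libraries; filled symbols passed at an adjusted p under 0.05. Ptbp2 is filled under all 4, Elavl4, Mbnl1 and Mbnl2 with the scores as deposited alone, and Elavl3 and Rbfox2 under each of the other 3.

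The 10 genes differ in structure. By GENCODE M21, Ptbp1 is short at 10345 bp and Ptbp2 spans 65725 bp, yet both have up to 13 introns per transcript. The 5 longest are Elavl4 and Elavl2 (148188 and 150023 bp), Mbnl2 and Mbnl1 (156029 and 156921 bp) and Rbfox2 (228015 bp). The median length was 136300 bp over the 10 genes and 25453 bp over all genes with a known length. Across the 10 genes, gene length and the log2 change without a pseudocount had a Spearman rho of 0.19 (a description of 10 genes). Ptbp1 and Ptbp2 were the members with annotated nonsense-mediated decay transcripts, 3 and 2, and they had 5 and 3 transcripts annotated with a retained intron, against 6 for Mbnl1 and 0 for Nova2, Elavl3 and Elavl4. All of these genes but Elavl4 overlap another annotated gene, and reads from the overlap may have entered the score of either one, since the use of strand is not stated.

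Of 27 other splicing regulators with a score, 8 rose and 0 fell, where 21.5% and 4.11% of all genes did. Raver2, which encodes a co-repressor that binds PTB, had 0.0181, 0.0207 and 0.0174 in N40K libraries, against 0.0076, 0.0071 and 0.0073 in Control libraries. Its ratio of 2.56 (limma adjusted p = 0.0022) matched that of Ptbp2 (2.56), and the call held under every alternative. Rbm20, the regulator of titin splicing in muscle, rose 1.55-fold (0.015), but not without Control replicate 2 or Control replicate 3 (highest adjusted p = 0.0596) or after centring on library medians (0.0512). The list had a median ratio of 1.19, against 1.11 over all genes. After centring on the median deviation 6 rose and 2 fell (14.2% and 9.67% of all genes).

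The listed target genes of the PTBP proteins had a median ratio of 0.977, against 1.11 over all genes. After centring on the median deviation 1 of 16 rose and 2 fell (14.2% and 9.67% of all genes). With the scores as deposited 2 rose and 0 fell (21.5% and 4.11% of all genes), counting Ptbp2 itself. The other rise was in Shank2, a postsynaptic scaffold (ratio 1.38, limma adjusted p = 0.027), whose call ended without any library other than N40K replicate 1 (highest adjusted p = 0.0888). PTBP1 is known to hold back splicing of terminal introns in Vamp2, Sv2a and Kif5a, which encode presynaptic proteins and a kinesin motor; these 3 were singled out after their values were seen. Vamp2 had 2.09, 2.08 and 2.06 in N40K libraries, against 2.24, 2.07 and 2.43 in Control libraries (ratio 0.925, limma adjusted p = 0.452). Sv2a had a mean score of 0.0281 in N40K neurons and 0.0287 in Control neurons, and Kif5a 0.00373 in N40K neurons and 0.0037 in Control neurons. None of the 3 passed, and the widest of their 95% intervals, that of Vamp2, ran from -0.34 to 0.12 (log2). The score does not resolve single introns, so these values cannot show whether splicing of a terminal intron changed. After centring on library medians Kif5a passed as a fall (limma adjusted p = 0.0351), from a log2 change of 0.0036 before centring.

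Among 13 NOVA targets 3 rose and 0 fell, or 2 and 2 after centring on the median deviation, with a median ratio of 1.24. Over all genes 21.5% rose and 4.11% fell, or 14.2% and 9.67% after that centring, with a median ratio of 1.11. Cacna1a and Cacna1b, the pore subunits of P/Q-type and N-type calcium channels, rose 1.7-fold each (limma adjusted p = 0.0112 and 0.0138). Dab1, an adaptor of reelin signalling, had 0.0007, 0.0011 and 0.0009 in N40K libraries, against 0.0005, 0.0004 and 0.0004 in Control libraries (ratio 2.08, 0.0303). The call of Cacna1b ended without Control replicate 2 or Control replicate 3 (highest adjusted p = 0.0537), and that of Dab1 without any library other than N40K replicate 1 (0.0987). Nova1 is itself a listed target, and Gphn was among the 10 that did not pass.

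Of 11 ELAVL targets 3 rose and 0 fell, or 1 and 2 after that centring, with a median ratio of 1.28. The shares over all genes were 21.5% and 4.11%, or 14.2% and 9.67%, and the median ratio was 1.11. Bdnf, the neurotrophin gene, had 0.0025, 0.0036 and 0.0032 in N40K libraries, against 0.0012, 0.0012 and 0.0015 in Control libraries, a ratio of 2.38 (limma adjusted p = 0.0092) whose call held with any library left out. Dst, a cytoskeletal linker, rose 1.4-fold (0.0128), but not without Control replicate 1 or Control replicate 2 (highest adjusted p = 0.0507). Elavl4 was the third.

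Of 16 MBNL targets 6 rose and 1 fell, or 2 and 3 after that centring, with a median ratio of 1.25. The shares over all genes were 21.5% and 4.11%, or 14.2% and 9.67%, and the median ratio was 1.11. Mbnl1 and Mbnl2 were 2 of the 6 rises. Cacna1d, an L-type calcium channel subunit, rose 1.5-fold (limma adjusted p = 0.00983), the membrane skeleton gene Add1 1.4-fold (0.0145) and the postsynaptic scaffold gene Tanc2 1.78-fold (0.0213). The fall was in Ldb3, a Z-disc protein of muscle, named after its value was seen, at a ratio of 0.638 (0.0422); its call ended without any 1 of the 6 libraries (highest adjusted p = 0.122). The call of Add1 ended without Control replicate 2 (0.0527), and that of Tanc2 without N40K replicate 2 or any Control library (0.077).

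Of 14 RBFOX targets 4 rose and 0 fell, or 2 and 4 after that centring, with a median ratio of 1.12. Rbfox2 is itself a listed target and is among those 4 falls. The shares over all genes were 21.5% and 4.11%, or 14.2% and 9.67%, and the median ratio was 1.11. Scn8a, which encodes the sodium channel Nav1.6, had 0.0053, 0.0069 and 0.0074 in N40K libraries, against 0.0026, 0.0023 and 0.0024 in Control libraries, a ratio of 2.68 (limma adjusted p = 0.00508) whose call held under every alternative. Camta1, a calmodulin-binding transcription activator, had 0.0016, 0.0017 and 0.0016 in N40K libraries and 0.0009 in every Control library. Its change on the log2(score + 0.01) scale was 0.09 (limma adjusted p = 0.00326). At the rounding step of 0.0001 its Control scores show no spread. Cacna1c, an L-type calcium channel subunit, rose 1.74-fold (0.0159), but not with any 1 of the Control libraries left out (highest adjusted p = 0.0598). Of the genes called and named from these target lists, the 10 regulators aside, Scn8a and Ldb3 kept their calls after centring on library medians. After quantile normalization the calls of Shank2, Dab1, Dst and Add1 ended, and after centring on the median deviation those 4 and that of Camta1.

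**Figure D4:**
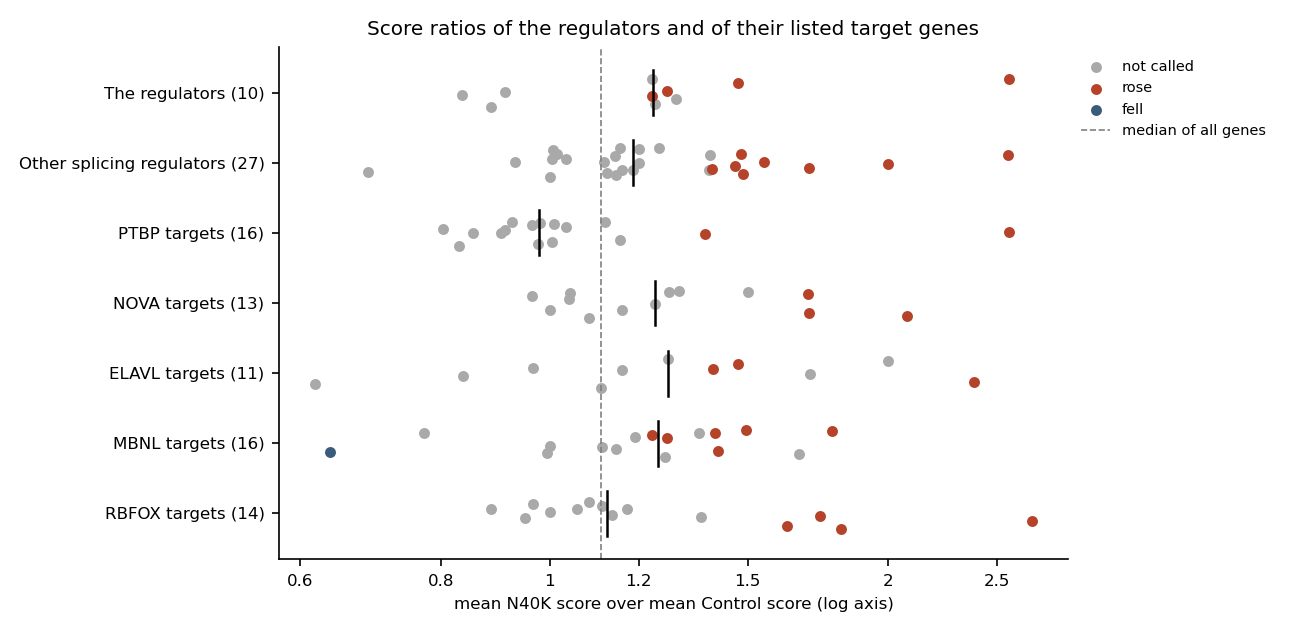
Ratio of the mean N40K score to the mean Control score (log axis) of the 10 regulators, of other splicing regulators and of the listed targets of each family; points are genes, coloured by call with the scores as deposited, and black lines are list medians. The PTBP targets have their median at 0.977, below the median of all genes (dashed, 1.11), and Ptbp2 and Raver2 both lie at 2.56.

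The genes whose scores followed Ptbp2 most closely over the 6 libraries, by Pearson's r of log2(score + 0.01), were Ide, Uap1 and Ociad1, each with r above 0.99. The libraries form 2 groups, so any gene that separates them scores high, and 283 genes passed 0.99. Ociad1 had a ratio of 2.19 (limma adjusted p = 0.00271), Uap1 1.47 (0.00575) and Ide 1.47 (0.00601). After centring on library medians the calls of Uap1 and Ide ended (adjusted p = 0.518 and 0.151).

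The labelled cell type could not be checked by RNA level, since scores are not levels. All 8 neuron markers on the list had a score, and 1 of them, Syn1, rose (ratio 1.23, limma adjusted p = 0.0282), a call that ended without any library other than N40K replicate 1 (highest adjusted p = 0.101). After centring on the median deviation 0 neuron markers rose and 2 fell, where 14.2% and 9.67% of all genes did. Of 22 markers of astrocytes, oligodendrocytes, microglia and progenitors, 17 had a score. Where 21.5% of all genes rose, 2 of these markers did, Csf1r and Itgam, both of microglia. Their ratios were 2.76 and 2.71 (limma adjusted p = 0.0131 and 0.0174). The calls ended without Control replicate 3 for Csf1r (0.0536) and without Control replicate 1 or Control replicate 3 for Itgam (highest adjusted p = 0.0635). After centring on the median deviation 2 microglia markers rose, and 1 marker each of astrocytes, the oligodendrocyte lineage and progenitors fell. Over all genes 14.2% rose and 9.67% fell after that centring. Aif1, the remaining microglia marker with a score, was not called (ratio 1.1, limma adjusted p = 0.4535). Since scores are not levels, these values do not measure how many microglia were present. The part of microglia in the scores of the regulators was not tested.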

How the data were processed

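Poly(A) RNA of 6 libraries was sequenced as stranded paired reads of 100 nt, per the labels' protocols. CASAVA, STAR, BWA, bedtools 2.16.1 and the build mm9 appear in the submitters' processing notes, which give them no role. The table deposited by the authors holds Sd scores, which behave as a linear ratio with 4 decimals, for 15705 genes; how they were computed, annotated and filtered, and whether strand was used, is not given in the sources used here. Each score column was matched to its library by name.

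For the test, limma 3.58.1 (R 4.3.3) was fitted to log2(score + 0.01) of all genes, with moderated variances and a trend. The 2-sided p-values were adjusted over all genes by Benjamini-Hochberg, and 0.05 was the threshold. The filter (a score above 0 in at least 3 libraries) removed 0 genes. For paralog ratios all 20 assignments of the libraries were enumerated in an exact permutation test (Python 3.11.15). "Rose" and "fell" refer to the scores as deposited unless a scaling is named. Ratios and fold values are of mean scores, while the limma p-values beside them belong to the change of log2(score + 0.01), which is smaller at low scores. Gene structures and exon sequences came from GENCODE M21 (GRCm38), matched by Ensembl identifier for 14911 genes (94.9%).

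The 10 genes, the lists and the tests were chosen with earlier results of these data known. Named were all 10 genes, their family members, up to 3 called genes with the smallest p per list and the 3 genes most like Ptbp2. Some target genes first listed are not reported here, and the lists were counted without them. Of the listed regulators, Mbnl3, Rbm4, Esrp1 and Esrp2 were not analysed here. The alternatives were other pseudocounts (0.001, 0.1 or none), filters, scalings, eBayes without trend, a replicate block and each library left out.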

Additional observations from a re-analysis of the deposited data

How the results depend on the processing

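Of the 10 regulators, 4 rose and 0 fell with the scores as deposited (21.5% and 4.11% of all genes). The number of rises was 1 with the 25% of genes lowest in mean score taken out (which removed Elavl2, Elavl4, Mbnl2 and Rbfox2 from the test), with each library centred on its median, after quantile normalization, with each library centred on the median deviation, with eBayes without trend, and without a pseudocount when centred on the median deviation, which was chosen after seeing the data. It was 1 to 4 with a library left out. The number of falls was 3 with each library centred on its median, 2 after quantile normalization and 2 with each library centred on the median deviation. It was 2 in the last of the fits above, and 0 with any library left out. Over all genes 9.75% rose and 18.4% fell with centring on the library median. The shares were 12.9% and 12.0% after quantile normalization, and 14.2% and 9.67% with centring on the median deviation. For the other alternatives named here no shares over all genes are given, so their counts cannot be set against all genes. With the replicate number as a block 1 regulator rose, Ptbp2 (limma adjusted p = 0.0271), and 0 fell. Same-numbered libraries correlated at -0.0712, 0.0376 and -0.0201 in their deviations from group means, so the numbers were not taken to pair them. Ptbp2 kept its call in all 18 alternatives, with adjusted p-values of 0.00164 to 0.0271, and Ptbp1 passed in none (0.0896 to 0.61).

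Changes that turned to lower (log2) when every library was centred on its own median were Nova2 (-0.0103), Elavl2 (-0.1078), Elavl4 (-0.0664), Mbnl1 (-0.0289), Mbnl2 (-0.0493), Shank2 (-0.0477), Dab1 (-0.0674), Dst (-0.0537), Add1 (-0.0108), Camta1 (-0.0364), Syn1 (-0.0052), Rbfox3 (-0.1166), Rbfox1 (-0.1167), Elavl1 (-0.0108) and Kif5a (-0.1268). After quantile normalization they were Elavl2 (-0.0071), Rbfox3 (-0.0088), Rbfox1 (-0.0114), Elavl1 (-0.0122) and Kif5a (-0.0801), and after centring on the median deviation Elavl2 (-0.0429), Elavl4 (-0.0016), Dab1 (-0.0025), Rbfox3 (-0.0517), Rbfox1 (-0.0518) and Kif5a (-0.0619). Kif5a also turned when so centred without a pseudocount (-0.1553). With a library left out it lay between -0.007 and 0.0141, lowest without Control replicate 1. Subtracting a shift moves every gene down, so small rises turn first. The pseudocount compresses low scores, so their rises are small on this scale. The paralog difference of Mbnl2 and Mbnl1 turned to 0.0498 without a pseudocount; the cause was not tested. The rounding to 4 decimals limits Elavl2, Elavl4, Rbfox1, Rbfox3, Camta1 and Dab1, and the unknown depth limits all scores.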
